A study of Mus musculus with 6 samples.

Results

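The genes described here are 10 enzymes of alcohol and aldehyde metabolism, among 22260 genes tested in mouse ureter: the alcohol dehydrogenases Adh1, Adh5 and Adh7, the aldehyde dehydrogenases Aldh2, Aldh3a1, Aldh3a2, Aldh3b1, Aldh7a1 and Aldh9a1, and the aldo-keto reductase Akr1b8. They were taken by gene name from the array files. Adh7 and Aldh3a1 were chosen by their higher signal in the ureters labelled Col17a1-KO, and the list was drawn up with results of these arrays known, so the comparison of the groups is given for all 10 as a description, with no test. The Aldh1a family, called retinal dehydrogenases below, was left out of the list and is given with the wider pathway.

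Alcohol dehydrogenases are zinc enzymes that oxidise alcohols to aldehydes with NAD+ as the electron acceptor, and aldehyde dehydrogenases oxidise the aldehydes further to acids. Aldo-keto reductases run the other way and reduce aldehydes to alcohols with NADPH. Together these enzymes handle ethanol, retinol, formaldehyde, fatty aldehydes and the reactive aldehydes that form when membrane lipids are oxidised, and epithelia that meet foreign compounds often carry them.

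The samples were whole ureters of mice on a C57BL/6N background, 2 months old, taken 4 days after unilateral ureteral obstruction (UUO), in which the ureter of 1 side is blocked; all 6 animals had the operation, and ureters without it were not analysed here. Of these animals 3 were labelled Col17a1-WT, all male, and 3 Col17a1-KO, of which replicates 1 and 2 were male and replicate 3 was female. The labels give no further description of the Col17a1 allele. RNA of each ureter was hybridised to a 1-colour Agilent array, and a log2 value below is the processed signal of a probe relative to the 75th percentile of all probes on its array. Such values can be compared between arrays for 1 probe, but not between probes.

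The 75th-percentile signal lay between 143.7 and 164.9, from 35486 to 36568 probes per array stood well above background, and 0 spots were saturated. Ureter markers were well above background on all 6 arrays for 18 of 18 genes of superficial urothelium and 12 of 12 of smooth muscle. Both probes of Col17a1, which encodes collagen XVII of the hemidesmosome, had higher values in the KO-labelled ureters (log2 differences of 1.65, or 1.07 without WT replicate 1, and 1.10), which goes against the label; the part of the gene that was altered is not given, so these probes do not check it, and the directions below are only as good as the group labels. Of 15 kidney tubule markers 7 were measured well enough to test, and 4 of these, Slc34a1, Slc22a6, Cubn and Fxyd2, were more than 2 log2 units higher in WT replicate 2 than on any other array. The other 3, Lrp2, Aqp1 and Cdh16, were not, with Aqp1 lowest of the WT arrays there. In whole-tissue RNA, more cells of a type and more RNA per cell cannot be told apart.

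The promoters of 3 genes are printed. In Adh7 and Akr1b8 all KO-labelled arrays lay above all WT arrays, while Adh1, the gene next to Adh7 in the genome, overlapped. Aldh3a1, also higher without overlap, had no entry in the promoter table used, and Aldh9a1, lower without overlap, is not printed. Each run is the 250 bases before the annotated start, read 5′ to 3′ on the gene's strand, from RefSeq's promoter table on build GRCm38.p6, which held 7 of the 10 genes. The positions are chr3:138217523-138217772 for Adh7, chr3:138277335-138277584 for Adh1 and chr6:34353896-34354145 for Akr1b8, all on the plus strand. Capitals mark matches on either strand to 3 motifs: the antioxidant response element core TGACNNNGC, the xenobiotic response element core GCGTG and the AP-1 element TGANTCA, which can share its first bases with TGACNNNGC.
Adh7: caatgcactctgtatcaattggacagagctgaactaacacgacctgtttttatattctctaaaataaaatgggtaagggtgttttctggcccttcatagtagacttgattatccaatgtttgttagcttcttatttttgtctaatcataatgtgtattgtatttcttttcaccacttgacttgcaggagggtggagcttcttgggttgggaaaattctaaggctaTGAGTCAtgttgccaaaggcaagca
Adh1: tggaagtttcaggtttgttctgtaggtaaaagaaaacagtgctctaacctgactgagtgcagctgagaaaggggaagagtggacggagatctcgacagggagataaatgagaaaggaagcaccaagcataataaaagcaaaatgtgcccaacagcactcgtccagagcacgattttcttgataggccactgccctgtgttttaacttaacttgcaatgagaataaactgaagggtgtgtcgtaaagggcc
Akr1b8: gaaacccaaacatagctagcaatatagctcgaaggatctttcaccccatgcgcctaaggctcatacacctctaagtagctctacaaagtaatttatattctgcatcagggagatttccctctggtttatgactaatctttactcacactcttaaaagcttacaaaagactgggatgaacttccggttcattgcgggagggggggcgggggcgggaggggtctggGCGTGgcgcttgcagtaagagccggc

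Adh7 held 1 AP-1 match, TGAGTCA, from base 25 to base 19 before the start, and AP-1 matches were present in 6.75% of the 32851 promoters in the table. Akr1b8 held 1 xenobiotic response element core, from base 26 to base 22 before the start, a match that 28.2% of all promoters had. This core was also in the windows of Aldh3a2 and Aldh9a1, whose differences between the groups were -0.02 and -0.16. The Adh1 window held none of the 3 motifs. The antioxidant response element core, present in 10.2% of all promoters, was found in the window of 1 member, Aldh9a1, as TGACTAGGC. These matches describe the printed letters and were not tested as binding sites.

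All 10 genes were measured: 19 of their 21 probes were well above background on every array, and the other 2, one each of Adh1 and Adh5, on none. For each gene the brightest probe is reported first. In the KO-labelled ureters the mean was higher for 5 of the 10 genes, against 49.8% of all genes tested. In 3 of the 10, Adh7, Aldh3a1 and Akr1b8, all 3 KO-labelled arrays lay above all 3 WT arrays, which held for 7.28% of all genes, and in 1, Aldh9a1, all 3 lay below, which held for 8.13%. In limma 0% of all genes had an adjusted p under 0.05, and 9.06% had an unadjusted p under 0.05. Since 2 members were picked for this contrast, nothing is read from these counts. The median difference over the 10 genes was 0.04, against -0.00087 over all genes.

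**Figure D1:**
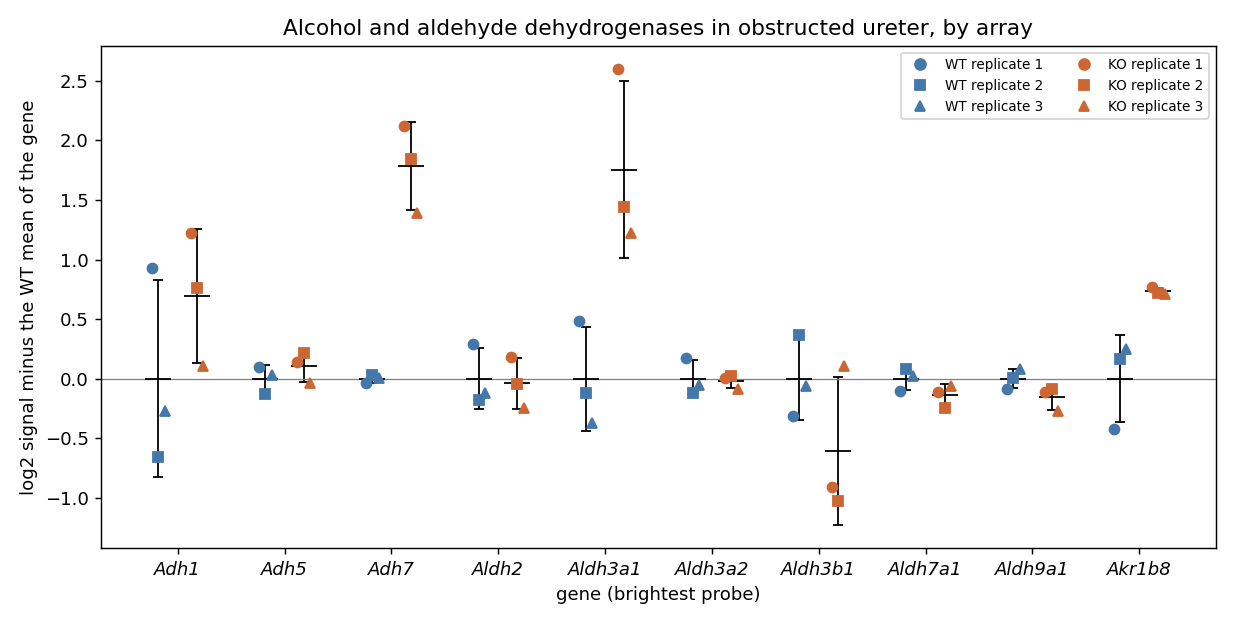
Log2 signal of each gene's brightest probe minus the gene's WT mean (y axis) for the 10 genes (x axis); points are single arrays, bars are the group mean ± SD of 3 arrays. Adh7, Aldh3a1 and Akr1b8 have all KO-labelled arrays above all WT arrays, Adh1 and Aldh3b1 spread widely within groups, and Adh5, Aldh2, Aldh3a2, Aldh7a1 and Aldh9a1 have means within 0.25 of each other.

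Among the alcohol dehydrogenases the group difference was large for Adh7 and small for Adh5. Adh7 encodes the class IV enzyme, found mostly in stratified and gastric epithelia and active on retinol. Its 1 probe, on chromosome 3 at 137894495 to 137894554 (mm9), had log2 values of -3.58, -3.51 and -3.54 in WT replicates 1, 2 and 3. In KO-labelled replicates 1, 2 and 3 the values were -1.42, -1.70 and -2.15. The WT arrays were within 0.04 (SD, n = 3) of their mean, while the KO-labelled arrays spread more (SD 0.37, n = 3), with the female lowest, and the groups were far apart. The KO-labelled mean was higher by 1.79 ± 0.19 (SE), a fold of 3.45.

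Adh7 was a dim probe. Its processed signal was 13.1, 12.6 and 13.6 in WT and 59.1, 50.8 and 32.8 in the KO-labelled ureters, where the lowest signal that counted as well above background was between 4.41 and 4.49. The size of its difference therefore turned on how low signals were processed. With normexp correction, which adds an offset of 50 to every signal, the difference was 0.60 ± 0.09 (SE). That offset is larger than the WT signals, so it draws the log2 values of a dim probe together by itself. The groups did not overlap under that correction either, with WT values from -1.66 to -1.53 and KO-labelled values from -1.15 to -0.86. Without KO-labelled replicate 3 the difference was 1.98, and without any other single array it lay between 1.62 and 1.80.

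Adh1 encodes the class I enzyme, the main enzyme of ethanol oxidation and also a retinol dehydrogenase. Its brightest probe, at 137952821 to 137952880 on chromosome 3 (mm9), had values of 5.16, 3.57 and 3.96 in WT replicates 1, 2 and 3 and 5.45, 4.99 and 4.33 in the KO-labelled ones. The groups overlapped, since WT replicate 1 was above KO-labelled replicates 2 and 3. The difference was 0.70 ± 0.47 (SE). A second probe, whose 60 bases span 1983 bases of the genome and so cross a splice junction, also had WT replicates 2 and 3 lowest and KO-labelled replicate 1 highest, with a difference of 0.88 ± 0.55 (SE). The Adh1 estimate was 0.37 without WT replicate 2, 0.43 without KO-labelled replicate 1 and 1.16 without WT replicate 1, so it moved with single arrays more than that of Adh7.

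Adh5 encodes the class III enzyme, which oxidises formaldehyde bound to glutathione and reduces S-nitrosoglutathione. Its values were 4.32, 4.09 and 4.25 in WT and 4.36, 4.44 and 4.18 in the KO-labelled ureters. The arrays of the groups were interleaved. The difference was 0.11 ± 0.12 (SE).

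The 3 alcohol dehydrogenases lie in 1 cluster on chromosome 3, in the RefSeq order Adh7, Adh1, Adh6a, Adh6b, Adh4 and Adh5. Along that order the measured differences were 1.79, 0.70, 0.15 for Adh6b and 0.11. Adh6a and Adh4 were not well above background on all arrays of either group. Whether neighbouring genes of the cluster differed from each other in their response was not tested. On the other side of Adh7, the nearest measured gene, Trmt10a, had a difference of 0.16 ± 0.26 (SE, limma, adjusted p = 0.877). The next one beyond it, Mttp, had a difference of 0.64 ± 0.13 (SE, limma, adjusted p = 0.418).

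Among the aldehyde dehydrogenases the members of the third family differed from gene to gene. Aldh3a1 encodes an enzyme that is abundant in the cornea and stomach, oxidises medium-chain and aromatic aldehydes and is known to be induced by foreign compounds. Its probe, on chromosome 11 at 61031857 to 61031916 (mm9), had values of 3.36, 2.76 and 2.51 in WT replicates 1, 2 and 3. In the KO-labelled replicates 1, 2 and 3 it had values of 5.48, 4.32 and 4.10. No array of a group reached into the other, and KO-labelled replicate 1 stood more than 1 log2 unit above the other KO-labelled arrays. The difference was 1.75 ± 0.41 (SE), a fold of 3.37, and it was 1.33 without KO-labelled replicate 1. With normexp correction it was 1.71, close to the main value, since this probe was bright (processed signals of 901.3 to 7038).

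Aldh3a2, the gene next to Aldh3a1 on chromosome 11, encodes the fatty aldehyde dehydrogenase of the endoplasmic reticulum. Its values were 1.72, 1.43 and 1.50 in WT and 1.55, 1.57 and 1.46 in the KO-labelled ureters, with the groups interleaved. The difference was -0.02 ± 0.12 (SE). Its 3 other measured probes gave -0.25, 0.00 and 0.09, and the sign changed from probe to probe.

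Aldh3b1 encodes an enzyme of the same family that oxidises lipid-derived aldehydes at membranes. Its values were 2.75, 3.42 and 2.99 in WT replicates 1, 2 and 3 and 2.15, 2.03 and 3.16 in the KO-labelled ones. Both male KO-labelled ureters lay below every WT array, and the female lay within the WT range. The difference was -0.61 ± 0.34 (SE), -0.96 without the female and -0.40 without KO-labelled replicate 2. Aldh3b1 is on chromosome 19, as is Col17a1, and the mm9 probe positions of the 2 genes are 43.8 Mb apart.

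The remaining aldehyde dehydrogenases had small differences. Aldh2 encodes the mitochondrial enzyme that clears acetaldehyde. Its brightest probe had values of 5.15, 4.67 and 4.73 in WT and 5.03, 4.81 and 4.61 in the KO-labelled ureters, fully interleaved. The difference was -0.04 ± 0.18 (SE), and its 3 other probes gave values from -0.0038 to 0.05. Over the alternatives tried the difference ranged from -0.15 to 0.16, so it had no settled sign.

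Aldh7a1 encodes an enzyme of lysine breakdown that also oxidises betaine aldehyde. Its values were 3.55, 3.74 and 3.68 in WT and 3.54, 3.41 and 3.60 in the KO-labelled ureters, which overlapped, though not after quantile normalisation. The difference was -0.14 ± 0.11 (SE), and -0.11 ± 0.10 (SE) at its second probe, where the groups did not overlap. Aldh9a1 encodes an enzyme of the carnitine and aminobutyrate pathways. Its values were 3.04, 3.12 and 3.20 in WT and 3.01, 3.03 and 2.84 in the KO-labelled ureters. The groups did not overlap, but KO-labelled replicate 2 was only just under WT replicate 1. The difference was -0.16 ± 0.11 (SE), and -0.10 without the female. The groups overlapped after median centring or normexp correction and at the second probe, whose difference was -0.12.

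**Figure D2:**
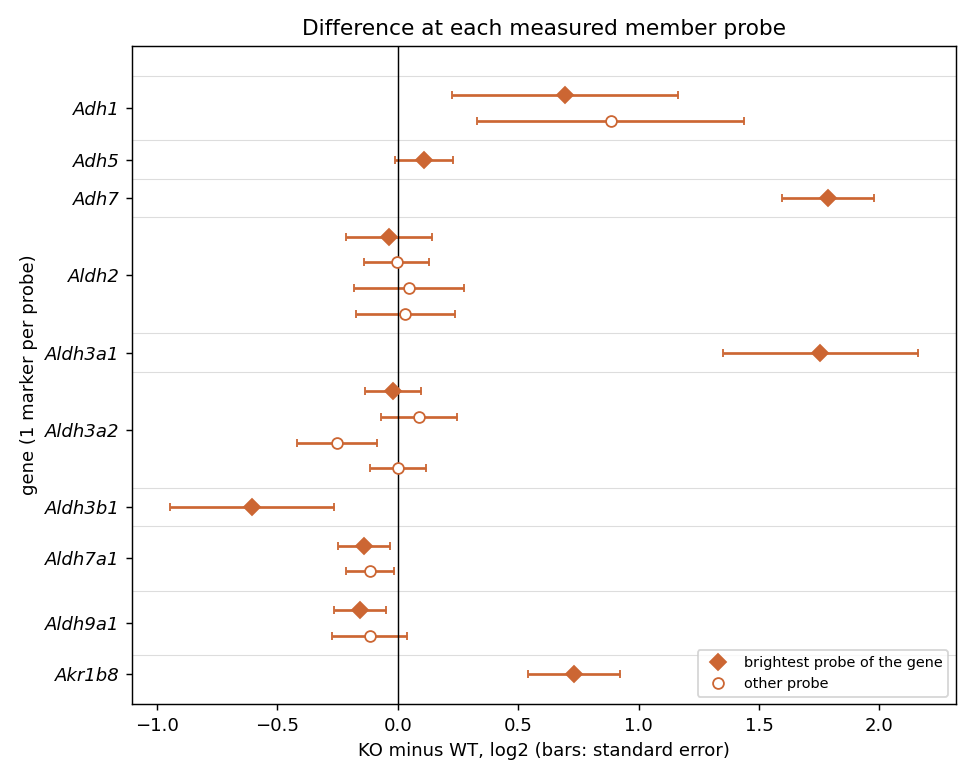
Difference between KO-labelled and WT ureters (x axis, log2, bars are the standard error from limma over 6 arrays) at each of the 19 probes well above background on all arrays, by gene (y axis). Filled diamonds are the brightest probe of a gene and open circles its other probes; both Adh1 probes are above 0, and the 4 probes each of Aldh2 and Aldh3a2 lie on both sides of 0.

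Akr1b8 encodes an aldo-keto reductase that reduces aldehydes, among them products of lipid peroxidation. Its probe, on chromosome 6 at 34318338 to 34318397 (mm9), had values of 5.41, 6.00 and 6.08 in WT replicates 1, 2 and 3. The KO-labelled replicates 1, 2 and 3 were at 6.60, 6.55 and 6.54. The KO-labelled arrays were nearly equal (SD 0.03, n = 3), the WT arrays spread more (SD 0.36, n = 3), and WT replicate 1 lay lowest. The difference was 0.73 ± 0.19 (SE), a fold of 1.66, and it was 0.52 without WT replicate 1.

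Several marker lists of cell types had means that differed between the groups as well, which does not show whether cell numbers changed. Of 18 superficial urothelium genes 17 had higher means in the KO-labelled ureters, and the list's mean per array, after subtraction of each gene's own mean, was 0.11, -0.85 and -0.38 in WT and 0.74, 0.45 and -0.06 in KO-labelled replicates 1, 2 and 3. Of 12 basal urothelium genes, a list that holds Col17a1, 10 were higher, and the list's means were -0.79, -0.21 and 0.10 in WT and 0.16, 0.60 and 0.15 in the KO-labelled ureters. Of 7 mesothelium genes 7 were higher, by 0.01 (Wt1) to 1.70 (Muc16), with a median difference of 1.04. That was larger than the median of the superficial (0.81) and basal (0.61) lists. It is the value of Upk3b, a gene that is also on the superficial list. The mesothelium means were 0.10, -0.66 and -0.87 in WT and 0.84, 0.39 and 0.20 in the KO-labelled ureters, without overlap. Krt19 of this list is also made by urothelium and is on the superficial list too. Muc16 and Gpm6a, with higher means in the KO-labelled ureters, were well above background on only 4 arrays each. Both count in these values, and without them the list means of the groups still did not overlap. Of 12 smooth muscle genes 12 were higher, with a median of 0.58 and overlapping list means. The 13 macrophage and dendritic cell genes were all lower, at 0.30, 0.49 and 0.38 in WT and -0.44, -0.68 and -0.04 in the KO-labelled ureters. Fibroblast markers were balanced, with 5 of 10 higher and means between -0.18 and 0.22. None of the genes in these lists passed the adjusted threshold in limma, at which 0 of 22260 genes did, while 9.06% of all genes had an unadjusted p under 0.05. At that level there were 7 higher superficial genes, 4 higher and 1 lower basal genes, 3 higher mesothelium genes, 11 lower macrophage genes, and 0 smooth muscle or fibroblast genes. Krt19 and Upk3b are counted in both the superficial and the mesothelium numbers.

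**Figure D3:**
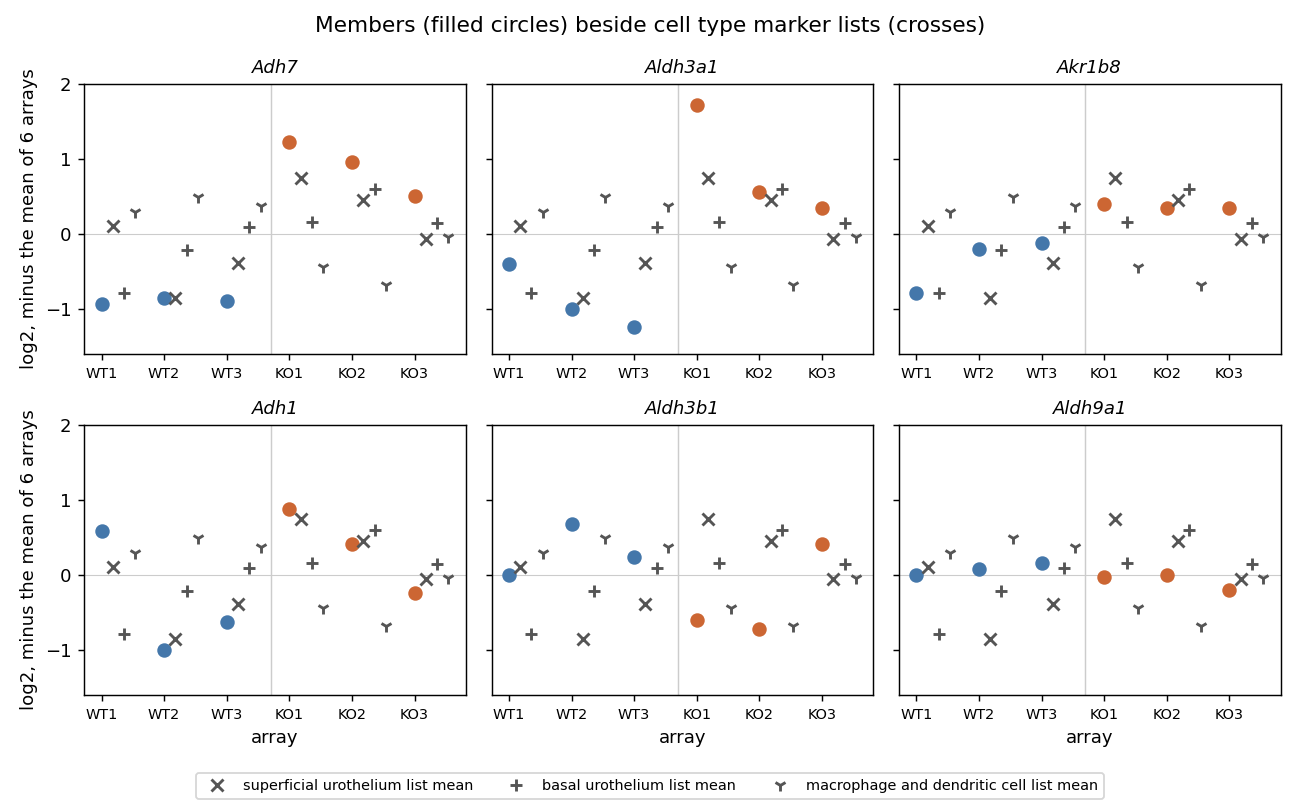
Log2 value of 6 members minus the mean of the 6 arrays (y axis, filled circles, WT blue and KO-labelled orange) for each array (x axis), with the means of 3 marker lists on the same scale (crosses), which are the same in every panel. The WT points of Adh7 nearly coincide while the superficial urothelium list runs from -0.85 to 0.11 there, and Adh1 is lowest and the macrophage list highest in WT replicate 2.

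The members and these lists can be set side by side by array. Aldh3a1 had the same rank order over all 6 arrays as the mesothelium list. The order ran from WT replicate 3 as the lowest to KO-labelled replicate 1 as the highest. That list holds Muc16 and Gpm6a, which were not well above background on all arrays. Without these genes the order of the list was no longer that of Aldh3a1, and WT replicate 2, not WT replicate 3, was lowest. Adh7 was level in WT, where the superficial urothelium means ran from -0.85 to 0.11. Between WT replicate 1 and KO-labelled replicate 3, Adh7 was higher in the latter, as were the basal (-0.79 and 0.15) and mesothelium (0.10 and 0.20) means, while the superficial mean was lower (0.11 and -0.06). Adh1 was lowest in WT replicate 2, then WT replicate 3, then KO-labelled replicate 3, which is also the order of the 3 lowest superficial urothelium means. Akr1b8 and the basal urothelium list both had their lowest value in WT replicate 1, as did the neutrophil list (-1.07). Akr1b8 was highest in KO-labelled replicate 1, the basal list in KO-labelled replicate 2 and the neutrophil list in KO-labelled replicate 3. Aldh3b1 was lowest in KO-labelled replicates 1 and 2, where the macrophage and dendritic cell list was lowest too. These likenesses are a few out of many possible pairs of a member and a list. The part of cell makeup in these differences was not tested.

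Genes with a pattern most like Adh7 were sought among 13341 named protein-coding autosomal genes that were well above background on all 6 arrays. Likeness was the root mean square difference of log2 values over the 6 arrays, after subtraction of each gene's mean. The 5 nearest were Gsdma (0.19), Nqo1 (0.20), H60c (0.27), Hsd17b2 (0.28) and Meltf (0.29), where Adh7 itself had a root mean square spread of 0.92. For Aldh3a1 they were Meltf (0.31), Unc93a (0.31), Hsd17b2 (0.32), Cfap43 (0.37) and Adh7 (0.38). Meltf and Hsd17b2 were in both lists. Adh7 and Aldh3a1 were both chosen by higher signal in the KO-labelled arrays, so their likeness over the same 6 arrays, and the group difference of at least 1.33 in each gene near them, follow from that choice.

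The wider pathway held 53 genes in 5 lists, of which 45 could be tested. In limma 0 of them passed the adjusted threshold in either direction, with 2 higher and 3 lower at an unadjusted p under 0.05 (9.06% of all genes), and the lowest adjusted p was 0.457. Means were higher for 27 and lower for 18, and the median difference was 0.07. All 3 arrays of the KO-labelled group lay above WT for 3 of the 45 genes (7.28% of all genes) and below for 3 (8.13%).

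Of the other aldehyde dehydrogenases 7 of 10 had higher means, with a median of 0.09. The lowest p was that of Aldh3b3, a relative of Aldh3b1, with means of -0.37 ± 0.28 for WT and 0.44 ± 0.38 for the KO label (SD, n = 3 each; difference 0.81, limma, adjusted p = 0.457). Its paralogue Aldh3b2 differed by 0.81 with overlapping groups (limma, adjusted p = 0.552), and by 0.52 without WT replicate 2. Aldh1l1, a folate enzyme that oxidises formyl-tetrahydrofolate, differed by 0.41 (limma, adjusted p = 0.609), and by 0.27 without either WT replicate 2 or KO-labelled replicate 1. With array weights, whose estimation did not converge, Aldh3b3 passed at 1.02 (limma, adjusted p = 0.0461), as the 1 of 45 genes of the wider pathway that did, where 2.24% of all genes passed. These genes are close relatives, and whether a probe also binds a paralogue's transcript was not checked here.

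Of the 4 other alcohol dehydrogenases, Adh6b and the mitochondrial hydroxyacid enzyme Adhfe1 were measured, at differences of 0.15 (0.08 without KO-labelled replicate 2 and 0.24 without KO-labelled replicate 1) and 0.06. The genes listed as retinal dehydrogenases are the Aldh1a family, some of whose enzymes make retinoic acid. All were measured and overlapped between the groups. Aldh1a1 differed by 0.65 ± 0.41, Aldh1a7 by 0.59 ± 0.35, Aldh1a3 by 0.29 ± 0.44 and Aldh1a2 by -0.21 ± 0.61 (SE), with adjusted p-values in limma from 0.654 to 0.939. Aldh1a1 was at 0.39 without KO-labelled replicate 1 and 1.06 without WT replicate 1, and Aldh1a7 at 0.32 without WT replicate 2, 0.37 without KO-labelled replicate 1 and 0.92 without WT replicate 1. With the mean of its probes Aldh1a1 was at 0.32. The directions of Aldh1a2, Aldh1a3 and Adhfe1 depended on single arrays or on array weights.

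Of the other aldo-keto reductases 3 of 11 had higher means and 8 lower, with a median of -0.14. Akr1b3, the aldose reductase that turns glucose into sorbitol, had means of 6.49 ± 0.16 for WT and 7.04 ± 0.23 for the KO label (SD, n = 3 each), a difference of 0.55 without overlap (limma, adjusted p = 0.457). Akr1b10, of the same subfamily, differed by -0.21 with overlapping groups. Akr1c13 and Akr1c12, related enzymes of the C subfamily, were lower by -0.38 and -0.27 without overlap (limma, adjusted p = 0.483 and 0.537).

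Of 18 other genes of carbonyl and alcohol metabolism 12 had higher means, with a median of 0.08. Ptgr2, a prostaglandin reductase, differed by -0.45 (limma, adjusted p = 0.540) and Cbr3, a carbonyl reductase, by 0.29 (limma, adjusted p = 0.566), both without overlap. Acss1, a mitochondrial acetate ligase, differed by -0.36 (limma, adjusted p = 0.723). Without WT replicate 1 the differences were -0.26 for Ptgr2, 0.19 for Cbr3 and -0.07 for Acss1. Esd, which completes formaldehyde oxidation after Adh5, differed by 0.24 (limma, adjusted p = 0.737), and Adh5 itself by 0.11.

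**Figure D4:**
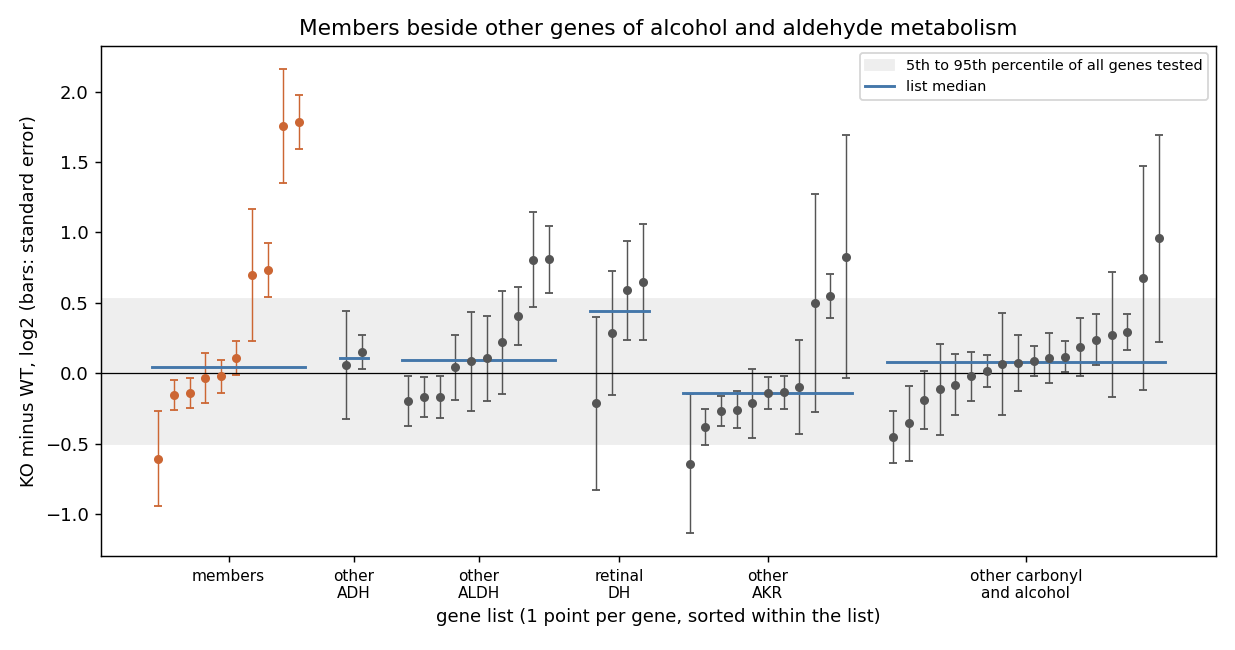
Difference between KO-labelled and WT ureters (y axis, log2, bars are the standard error) for the 10 members and for 45 other genes of alcohol, aldehyde and carbonyl metabolism (x axis, by list); the grey band spans the 5th to 95th percentile of all 22260 genes (-0.50 to 0.53) and blue lines are list medians. Aldh3a1 and Adh7 lie highest among the members, and the list medians range from -0.14 to 0.44.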

How the data were processed

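Per the file headers, the authors' deposited spot intensity values came from Agilent Feature Extraction 12.0.3.1 (also in the submitters' processing notes), which removed fitted spatial trends within each array; arrays were not normalised against each other. Probe positions refer to mm9. All 6 arrays were on 1 slide with 1 scan time.

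Spots called outliers by the scanner software were dropped, spots of a probe averaged, and the 75th percentile of the array's 56605 non-control probes subtracted from log2 processed signals. A probe entered if a whole group had it well above background; the brightest probe stood for a gene, leaving 22260 genes. Accessions of 35405 probes matched a RefSeq symbol; the others kept the files' names. Groups were compared over all genes with limma 3.58.1 (lmFit, eBayes; R 4.3.3), with Benjamini-Hochberg adjustment at 0.05; the fit was tested on simulated data. An exact permutation test of 3 arrays against 3 cannot go below a two-sided p of 0.1. The labels do not state that samples came from separate litters or days, so p-values measure the spread between these samples, and the number of arrays limits the precision.

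Members and lists were chosen with earlier results of these data known. Named genes are the members, Col17a1, the retinal dehydrogenases and the 3 lowest p-values of each other pathway list. Also named are the 5 genes most like Adh7 and Aldh3a1 and their dehydrogenase neighbours. The kidney markers, Krt19, Upk3b, Wt1, Muc16, Gpm6a, Trmt10a, Mttp, Akr1b10 and Esd were named after their values were seen. Other lists fixed as cell markers were neutrophil (6 of 11 higher), endothelium (6 of 8) and kidney tubule (0 of 7). At an unadjusted p under 0.05 in limma (9.06% of all genes), 4 neutrophil genes were higher and 0 lower. At that level 0 endothelium genes were called, and 1 kidney tubule gene was lower. Of the 11 neutrophil genes 10 were well above background on all arrays.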

Additional observations from a re-analysis of the deposited data

How the results depend on the processing

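Over 17 alternatives for each member (170 values; 1 alternative left out both WT replicate 2 and KO-labelled replicate 3, chosen after the data were seen), 1 moved by more than the spread between replicates: Adh7 with normexp background, at 0.60. Signs changed in 10 values, 5 each of Aldh2 and Aldh3a2. The alternatives were not separate trials. The trended eBayes fit, both filter settings for dim probes and the block for replicate number left every member's difference as in the main fit. So did the mean of a gene's probes for members with 1 measured probe. With sex as a covariate the differences were those without KO-labelled replicate 3, the only female. Aldh3a1 ranged from 1.33 to 2.36, Akr1b8 from 0.52 to 0.86, Adh1 from 0.37 to 1.18 and Aldh3b1 from -0.96 to -0.40. With array weights 498 genes passed the adjusted threshold, whose estimation did not converge and which differed 30.2-fold between arrays, and 1 of the wider pathway passed there. With each array left out in turn 0 to 1 genes passed; the 1 gene, found without KO-labelled replicate 2, is no member. Aldh1a3 reversed to -0.46 with array weights and to -0.14 in the alternative added later, where Adhfe1 was at -0.018. With single arrays left out, differences ranged from -0.91 to 0.14 for Aldh1a2, from 2.6e-05 to 0.69 for Aldh1a3 and from -0.28 to 0.38 for Adhfe1.

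The replicate numbers are shared between the groups, and the labels do not say whether they pair the arrays. Deviations of same-numbered arrays correlated at 0.53, -0.15 and -0.03 across genes. Those of differently numbered arrays ran from -0.45 to 0.46, so the correlations do not settle it. With the number as a block (replicate block) 1 gene passed, no member, and the members' differences were the same by construction. Their SE fell for some, from 0.41 to 0.16 for Aldh3a1 and from 0.47 to 0.26 for Adh1. It rose for others, from 0.12 to 0.14 for Adh5 and from 0.11 to 0.13 for Aldh9a1.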
